A study of Homo sapiens with 16 samples.

Results

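The genes described here are 10 genes of the integrated stress response that act with or below the transcription factors ATF4 and CHOP. They are ATF4, DDIT3, TRIB3, DDIT4, PPP1R15A, CHAC1, SESN2, CEBPB, NUPR1 and ATF5. The set is a list of names with no cutoff on a measured value, drawn up with earlier results of these data known, and each gene was found once among the 60623 genes listed. Their messenger RNA was measured in a gut cell line and a liver cell line on a microfluidic chip, with and without free fatty acids (FFA).

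Caco-2, a human colorectal adenocarcinoma line, stood for the gut, and HepG2, a human hepatocellular carcinoma line, stood for the liver. The 8 groups were Caco-2 mono-culture control, Caco-2 mono-culture FFA, Caco-2 co-culture control, Caco-2 co-culture FFA and the same 4 groups of HepG2, with 2 replicates each. In mono-culture a line was grown alone, and in co-culture its chamber was linked to that of the other line by circulating medium. Both lines were first grown in Dulbecco's modified Eagle medium with fetal bovine serum and non-essential amino acids. The study then describes starvation in serum-free medium before FFA treatment. The FFA groups received a total of 1 mM palmitic and oleic acid at a ratio of 1:2, in a serum-free medium with fatty acid-free albumin. The labels give 1 day of treatment, and the study's text describes mRNA-seq after this and after a longer treatment, so the duration behind these libraries rests on the labels. Whether control cells received the same albumin medium and fatty acid solvent is not given in the sources used here, so FFA and its vehicle cannot be told apart. The study's methods describe independent experiments for mRNA-seq, but the labels do not tie the libraries to them, so the p-values measure the spread between these libraries.

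The integrated stress response starts when 1 of several kinases phosphorylates the initiation factor eIF2α. Most translation then slows, while translation of ATF4 increases through upstream open reading frames in its mRNA. ATF4 activates genes of amino acid supply and stress defence, among them DDIT3, which encodes CHOP, and both factors act on TRIB3, CHAC1 and PPP1R15A. In liver cells the response is known from amino acid shortage, from stress of the endoplasmic reticulum and from saturated fatty acids. Because ATF4 is controlled largely at translation, its mRNA level does not measure its protein.

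The DNA before the transcription start was examined because several of these genes had higher values with FFA in HepG2 and lower ones in Caco-2 co-culture. None of these changes passed the main test. RefSeq windows from 250 bases before to 50 after a start (GRCh38.p14) were found for 9 of the 10 genes, 16 windows in all, by symbol. The windows were searched on both strands for TGATGNAA, a core of the element bound by ATF4 with C/EBP proteins (called CARE), and for TGACGTCA, the cAMP response element (called CRE). CARE was in the window of CHAC1 and in 3.62% of all 35116 windows. CRE was in the window of PPP1R15A and in 1.85% of all windows. No gene here had both. The following lines show the match in each of these genes with its flanks, and the bases before the start of TRIB3, DDIT4 and DDIT3 that lie outside their annotated exons, all in lower case except for the matched motif in capitals, which for CHAC1 is CARE on the opposite strand.
CHAC1, chr15:40953251-40953280, plus strand: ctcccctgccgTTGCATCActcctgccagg
PPP1R15A, chr19:48872352-48872381, plus strand: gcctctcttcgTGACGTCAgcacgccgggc
TRIB3, chr20:381170-381245, plus strand: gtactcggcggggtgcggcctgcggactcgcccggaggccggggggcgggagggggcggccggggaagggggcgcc
DDIT4, chr10:72273674-72273918, plus strand: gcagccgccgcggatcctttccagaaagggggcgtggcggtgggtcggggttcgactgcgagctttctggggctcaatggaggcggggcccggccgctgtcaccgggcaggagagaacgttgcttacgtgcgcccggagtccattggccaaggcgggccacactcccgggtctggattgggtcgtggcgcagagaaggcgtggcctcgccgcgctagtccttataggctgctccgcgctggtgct
DDIT3, chr12:57520518-57520767, minus strand: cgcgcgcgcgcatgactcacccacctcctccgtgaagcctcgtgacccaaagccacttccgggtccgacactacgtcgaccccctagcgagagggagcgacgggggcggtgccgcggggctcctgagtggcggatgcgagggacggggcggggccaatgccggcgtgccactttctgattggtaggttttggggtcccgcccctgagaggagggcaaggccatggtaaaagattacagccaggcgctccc
The matches began 209 bases before the start of CHAC1 and 58 bases before that of PPP1R15A. In GENCODE 44 both matches lay within an annotated exon of the gene itself. A match describes letters in a window and is no evidence of binding.

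Levels are in CPM, the reads of a gene relative to all reads of its library, which corrects for library depth but not for gene length, so levels of different genes are not compared. The libraries held 49634 to 1657430 reads, and 1 read stood for 0.603 to 20.1 CPM. The smallest value the depth could show was taken as 3 reads, which was 1.81 to 10.9 CPM in 14 libraries and 20.4 and 60.4 CPM in HepG2 co-culture FFA, the shallowest group. This limit reflects counting alone, because PCR copies of a molecule are read more than once. The line labels were checked against marker genes. The lowest HepG2 library exceeded the highest Caco-2 library for 13 of 15 liver markers, and the reverse held for 5 of 15 intestinal markers. CDX1 had no read in any library, and 7 intestinal markers, CDX1, CDX2, CDH17, GPA33, MUC13, SI and ALPI, were at 0 in all 8 HepG2 libraries. Of these, CDX2, GPA33, SI and ALPI were also at 0 in some Caco-2 libraries, so their zeros in HepG2 say little. CDH17 and MUC13 had reads in every Caco-2 library. Some markers went the other way. The liver marker VTN was higher in every Caco-2 library than in any HepG2 library. The intestinal markers TFF3, VIL1 and TRIM31 reached higher values in HepG2 than in Caco-2. Caco-2 libraries also held ALB, at 356 to 965 CPM.

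Read numbers divided the genes. ATF4, DDIT3, TRIB3, DDIT4 and PPP1R15A had at least 3 reads in all 16 libraries. The other 5 fell under 3 reads in at least 1 library. CHAC1 had 92 reads in Caco-2 and 1 read in HepG2, NUPR1 had 20 in Caco-2 and 151 in HepG2, and CEBPB had 41 and 45. ATF5 had 19 and 13 reads and SESN2 had 7 and 8, so changes of ATF5 and SESN2 were not detectable at this depth in most comparisons.

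**Figure D1:**
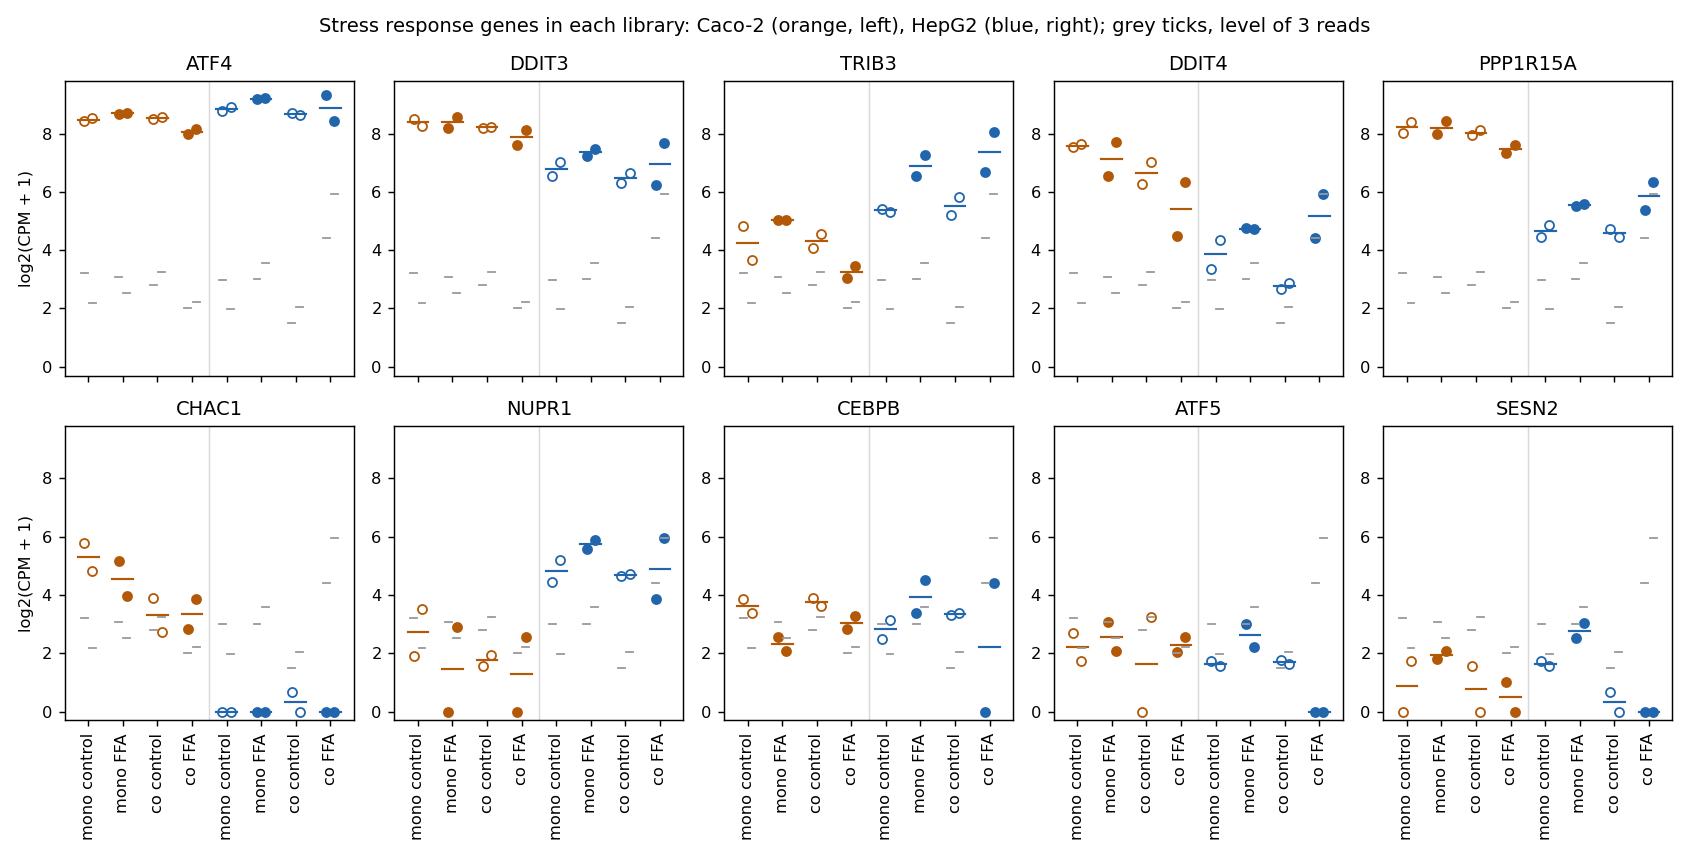
Level of each gene in the 16 libraries, as log2 of CPM plus 1 (vertical axis), by group (horizontal axis). Each point is 1 library (open, control; filled, FFA), coloured bars are means of 2 libraries and grey ticks mark 3 reads. The HepG2 libraries of PPP1R15A lie between 20.9 and 80.6 CPM and the Caco-2 libraries between 161 and 341 CPM, while TRIB3 lies higher in HepG2.

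The 2 lines held these genes at different levels. ATF4, TRIB3 and NUPR1 were higher in HepG2, and DDIT3, PPP1R15A, DDIT4 and CHAC1 were higher in Caco-2. These 7 of 10 genes passed limma's test of the line difference averaged over the 4 conditions (adjusted p under 0.05), where 30.3% of all 17544 genes tested passed. Each organ is represented by 1 tumour line, so the test compares these lines and not gut with liver.

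ATF4, the transcription factor that leads the response (ENSG00000128272, chromosome 22, 39519695 to 39522683, GRCh38), was at 252, 364 and 418 CPM in Caco-2 (lowest, median and highest of 8 libraries) and at 343, 455 and 639 CPM in HepG2. The ranges overlapped. The log2 difference, HepG2 minus Caco-2, was 0.45 ± 0.11 (SE; limma adjusted p = 0.00507). It was 0.31 with an adjusted p of 0.0839 under median-ratio rescaling and 0.45 with an adjusted p of 0.0709 under a constant prior variance, so this call depended on the setting. Processed copies of ATF4 held at most 1 read in a library.

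DDIT3 encodes CHOP, which promotes cell death genes in prolonged stress (ENSG00000175197, chromosome 12, 57516588 to 57521737). It was at 195, 296 and 382 CPM in Caco-2 and at 74.8, 114 and 201 CPM in HepG2, and its log2 difference was −1.32 ± 0.18 (SE; limma adjusted p = 5.60e-05). An unnamed protein-coding gene on the same strand, ENSG00000285133, shares exons with DDIT3. Its reads were 90.2% to 100% of those of DDIT3 in every library, so the counting could not tell the genes apart. ATF5, another ATF family factor, and CEBPB, the C/EBP protein that dimerises with ATF4 and CHOP, did not pass in this comparison. CEBPB averaged 8.90 ± 3.95 CPM in Caco-2 and 10.3 ± 7.34 CPM in HepG2 (SD, n = 8).

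PPP1R15A encodes GADD34, the phosphatase subunit that reverses eIF2α phosphorylation (ENSG00000087074, chromosome 19, 48872212 to 48876059). It averaged 258 ± 62.2 CPM in Caco-2 and 38.6 ± 19.9 CPM in HepG2 (SD, n = 8), 6.67 times as much in Caco-2, and the lines did not overlap. DDIT4, an inhibitor of mTORC1 signalling (ENSG00000168209, chromosome 10, 72273919 to 72276036), averaged 124 ± 67.9 CPM in Caco-2 and 21.6 ± 17.7 CPM in HepG2. Their log2 differences were −2.81 ± 0.16 and −2.55 ± 0.32 (SE; limma adjusted p = 7.48e-09 and 2.36e-05).

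CHAC1 degrades glutathione and is a target of ATF4 and CHOP (ENSG00000128965, chromosome 15, 40952962 to 40956512). It had 2 to 23 reads in each Caco-2 library and was seen in 1 HepG2 library, with 1 read. Pooled over the libraries of a line, its share of reads was 93.2 times as high in Caco-2 (exact 95% counting interval 16.3 to 3722; limma adjusted p = 2.05e-06). The interval treats pooled reads as independent and leaves out the spread between libraries. In the opposite direction, TRIB3, a pseudokinase that restrains ATF4 and CHOP (ENSG00000101255, chromosome 20, 362835 to 397559), averaged 19.9 ± 10.1 CPM in Caco-2 and 97.6 ± 77.7 CPM in HepG2. NUPR1, a small chromatin-binding stress protein (ENSG00000176046, chromosome 16, 28532708 to 28539008), averaged 3.68 ± 3.55 CPM in Caco-2 and 35.7 ± 17.7 CPM in HepG2. The log2 differences were 2.07 ± 0.25 for TRIB3 and 3.24 ± 0.51 for NUPR1 (SE; limma adjusted p = 1.77e-05 and 0.000231). No library of one line overlapped the other for TRIB3 and NUPR1 (higher in HepG2, as for 4.3% of genes tested) or for PPP1R15A and CHAC1 (lower, as for 5.97%). The quasi-likelihood test of edgeR on the recovered reads passed all 7 genes it could test, where it passed 66.9% of genes. With every library thinned to 49634 reads, 2 of these genes still passed, DDIT3 and PPP1R15A.

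SESN2, a leucine sensor and antioxidant protein (ENSG00000130766, chromosome 1, 28259518 to 28282491), did not exceed 2 reads in any library. ATF5 (ENSG00000169136, chromosome 19, 49928702 to 49933935) did not exceed 4 reads, and genes on the other strand overlap it, so its reads could be shared. CEBPB (ENSG00000172216, chromosome 20, 50190830 to 50192668) had 15 reads at most.

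The next question was whether FFA changed the response in HepG2, the line that models the fatty liver. TRIB3, DDIT4 and PPP1R15A were higher in all 4 FFA libraries than in all 4 control libraries. ATF4 and DDIT3 were higher with FFA in mono-culture, but their co-culture libraries overlapped. After adjustment over 14430 genes, none of the 9 genes tested passed limma's test in mono-culture (0% of all genes passed), in co-culture (0%) or averaged over both cultures (0.0762%).

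TRIB3 was at 41.8 and 39.1 CPM in mono-culture control and at 91.9 and 153 CPM in mono-culture FFA, with 18, 40, 39 and 42 reads. In co-culture it was at 35.6 and 56.0 CPM in control and at 102 and 262 CPM with FFA, with 59, 53, 15 and 13 reads. Both FFA groups lay above both control groups, and the FFA groups overlapped each other. The means were 3.03 times (mono-culture) and 3.97 times (co-culture) those of control. The log2 change was 1.53 ± 0.47 in mono-culture, 1.85 ± 0.47 in co-culture and 1.69 ± 0.34 averaged (SE; limma adjusted p = 0.712, 0.174 and 0.134).

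DDIT4 was at 9.29 and 19.6 CPM in mono-culture control, 25.9 and 25.5 CPM with FFA, 5.43 and 6.35 CPM in co-culture control and 20.4 and 60.4 CPM with FFA. The last 2 values stood for 3 reads each, which was the floor. PPP1R15A was at 20.9 and 28.4 CPM in mono-culture control, 44.8 and 47.3 CPM with FFA, 25.3 and 21.1 CPM in co-culture control and 40.8 and 80.6 CPM with FFA, the last 2 from 6 and 4 reads. Every FFA library of these genes was above every control library. The averaged log2 changes were 1.64 ± 0.46 for DDIT4 and 1.08 ± 0.30 for PPP1R15A (SE; limma adjusted p = 0.207 for each).

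ATF4 was at 432 and 479 CPM in mono-culture control and 582 and 589 CPM with FFA, and at 412 and 393 CPM in co-culture control and 639 and 343 CPM with FFA. The 2 co-culture FFA libraries stood on either side of the controls, the lower one with 17 reads. DDIT3 was at 92.9 and 129 CPM in mono-culture control, 151 and 175 CPM with FFA, 77.8 and 98.3 CPM in co-culture control and 74.8 and 201 CPM with FFA. The averaged log2 changes were 0.29 ± 0.18 for ATF4 and 0.52 ± 0.30 for DDIT3 (SE; limma adjusted p = 0.519 and 0.488), with 95% intervals of −0.12 to 0.70 and −0.17 to 1.22.

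NUPR1 was at 20.9 and 36.2 CPM in mono-culture control and at 47.1 and 58.2 CPM with FFA. In co-culture it was at 24.1 and 25.4 CPM in control and at 13.6 and 60.4 CPM with FFA, where it had 2 and 3 reads. CEBPB was at 4.64 and 7.82 CPM in mono-culture control and 9.42 and 21.8 CPM with FFA. In mono-culture these genes, ATF5 and SESN2 were all higher with FFA in both libraries, ATF5 and SESN2 with 3 reads at most in a library. In co-culture FFA, ATF5 and SESN2 had no read and CEBPB had 1 read, so no change was detectable.

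In mono-culture, the FFA libraries did not overlap the controls for 9 of 9 genes, all higher, where 20.2% of genes tested were higher without overlap. For ATF5 and SESN2 this rested on 3 reads at most in a library, which does not show a change. Over the 7 genes with 3 reads in at least 1 library of each group the median log2 change was 0.89, against 0.17 over all such genes. The median log2 change of the 9 genes was 0.90 and that of all genes tested was 0.06. Over both cultures, 3 of 9 genes were higher in 4 of 4 FFA libraries, as were 4.16% of genes tested. Before adjustment, p was under 0.05 with higher values for TRIB3 in mono-culture (3.04% of genes) and for TRIB3, DDIT4 and PPP1R15A in co-culture (6.71%) and averaged (6.76%). In co-culture the median log2 change was 0.22 over the 9 genes and −0.26 over all genes. Over the 6 genes with 3 reads in at least 1 library of each group it was 0.88, against 0.24 over all such genes. This filter favours genes high with FFA, because 3 reads stood for 20.4 and 60.4 CPM there and 1.81 and 3.17 CPM in control. The medians after this filter therefore do not show a change. Under median-ratio rescaling the co-culture medians were −0.18 over the 9 genes and −0.45 over all genes, both shifted down.

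The call for TRIB3 depended on the test. With edgeR on the recovered reads, TRIB3 passed in mono-culture (log2 change 1.42, adjusted p = 0.0264, with 0.744% of genes passing), in co-culture (1.48, adjusted p = 0.0204, 7.99% passing) and averaged (1.45, adjusted p = 0.000599, 13.3% passing). It was the 1 gene of 6 that passed each of these. Leaving out co-culture FFA replicate 1, 4 genes passed limma's test in co-culture (DDIT3, PPP1R15A, DDIT4 and TRIB3) and 5 averaged (with NUPR1), when 18% and 11.9% of all genes passed. This left the 49634-read library alone in its group, with a spread assumed to equal that of the other groups. Leaving out replicate 2 in its place, 0 genes passed in both.

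**Figure D2:**
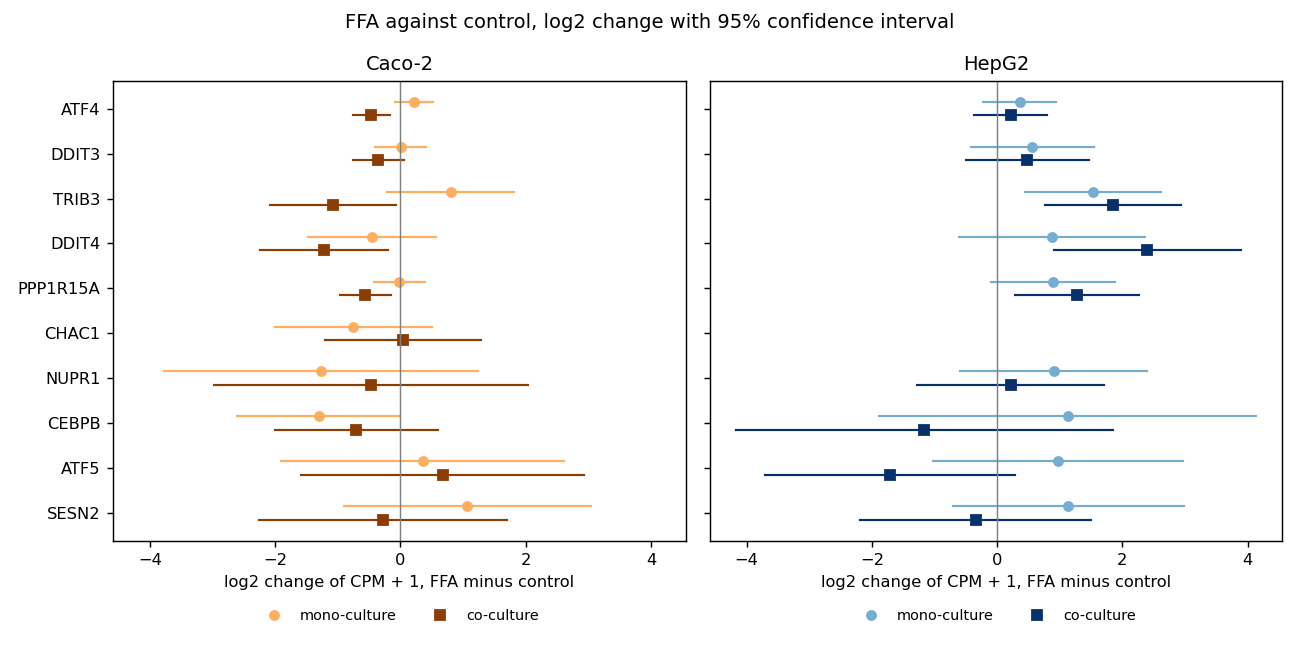
Change with FFA in each gene, as the log2 change of CPM plus 1 with its 95% confidence interval (horizontal axis), in Caco-2 (left) and HepG2 (right), for mono-culture (circles) and co-culture (squares). The log2 change of TRIB3 was 1.53 and 1.85 in HepG2 and 0.80 and −1.08 in Caco-2. CHAC1 was not tested in HepG2.

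In Caco-2, no common increase was seen with FFA. In mono-culture, 5 of 10 genes had a positive and 5 a negative log2 change. In co-culture, 8 of 10 had a negative one, among them ATF4, DDIT3, TRIB3, DDIT4 and PPP1R15A. None of the 10 genes passed limma's test in mono-culture (0.00647% of 15454 genes passed), in co-culture (0%) or averaged (0%).

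ATF4 was at 342 and 368 CPM in mono-culture control and 406 and 418 CPM with FFA, both above control. In co-culture it was at 361 and 379 CPM in control and at 252 and 283 CPM with FFA, both below control. TRIB3 had the same order, with 27.4 and 11.7 CPM in mono-culture control, 32.1 CPM in both FFA libraries, 15.9 and 22.6 CPM in co-culture control and 7.18 and 9.86 CPM with FFA. Of genes tested, 16% were higher without overlap in mono-culture and 14.9% lower without overlap in co-culture, each counted alone. How many genes had both orders was not counted. The log2 change with FFA in co-culture was −0.46 ± 0.14 for ATF4 and −1.08 ± 0.47 for TRIB3 (SE; limma adjusted p = 0.862 for each). The interaction of FFA with culture was −0.68 ± 0.20 for ATF4 and −1.88 ± 0.67 for TRIB3. Neither passed (limma adjusted p = 0.820 for each), and 0% of all genes passed for the interaction.

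PPP1R15A was at 260 and 336 CPM in mono-culture control, 250 and 341 CPM with FFA, 246 and 277 CPM in co-culture control and 161 and 193 CPM with FFA. DDIT4 was at 183 and 197, 91.5 and 211, 75.3 and 130, and 21.6 and 80.1 CPM in these 4 groups. DDIT3 was at 359 and 308, 289 and 382, 293 and 300, and 195 and 276 CPM. In each of the 3 genes, co-culture FFA had the lowest mean of the Caco-2 groups. The log2 change with FFA in co-culture was −0.56 ± 0.19 for PPP1R15A, −1.23 ± 0.48 for DDIT4 and −0.35 ± 0.19 for DDIT3. Before adjustment, 4 of 10 genes were lower with p under 0.05 in co-culture (ATF4, PPP1R15A, DDIT4 and TRIB3), as were 2.42% of genes tested. Averaged over culture these were 3 genes (PPP1R15A, DDIT4 and CEBPB), against 1.73% of genes tested. The median log2 change in co-culture was −0.47 for the 10 genes and 0.00 for all genes. Without co-culture FFA replicate 2, ATF4 passed in co-culture (−0.55, limma adjusted p = 0.0276, with 6.99% of genes passing) and for the interaction (−0.76, adjusted p = 0.0210, 7.37% passing).

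CEBPB was at 13.7 and 9.40 CPM in mono-culture control and 4.94 and 3.22 CPM with FFA, and at 13.9 and 11.3 CPM in co-culture control and 6.16 and 8.62 CPM with FFA, from 2 to 8 reads each. All 4 FFA libraries were lower than all 4 controls, as for 0.744% of genes tested. Its log2 change was −1.30 ± 0.61 in mono-culture and −0.70 ± 0.61 in co-culture (SE; limma adjusted p = 0.837 and 0.891). NUPR1, ATF5 and SESN2 had 9 reads at most in a Caco-2 library.

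Co-culture was then compared with mono-culture. In Caco-2, ATF4, DDIT3, TRIB3, DDIT4, PPP1R15A and CHAC1 had lower values in both co-culture FFA libraries than in both mono-culture FFA libraries, where 14.6% of genes tested were lower without overlap. SESN2 had the same order from 2 reads at most in a library, which does not show a change. The largest differences among those with reads in all libraries were in TRIB3, at 0.265 times, and DDIT4, at 0.337 times the mono-culture mean. Without FFA, TRIB3 was at 0.983 times, DDIT4 at 0.539 times and CHAC1 at 0.239 times the mono-culture mean. None of the 10 genes passed limma's test without FFA (0.0971% of genes passed), with FFA (0.0971%) or averaged (0.453%).

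CHAC1 was at 54.7 and 27.0 CPM in mono-culture control, 34.6 and 14.5 CPM in mono-culture FFA, 13.9 and 5.65 CPM in co-culture control and 6.16 and 13.5 CPM in co-culture FFA. Every co-culture library was below every mono-culture library, as for 1.68% of genes tested. The averaged log2 change of CHAC1 was −1.60 ± 0.41, that of DDIT4 −1.32 ± 0.34 and that of PPP1R15A −0.45 ± 0.14 (SE; limma adjusted p = 0.121, 0.115 and 0.188). TRIB3 had −0.87 ± 0.33, ATF4 −0.28 ± 0.10 and DDIT3 −0.34 ± 0.13 (SE; limma adjusted p = 0.339, 0.289 and 0.349). With FFA, the log2 change of co-culture was −0.62 ± 0.14 for ATF4, −0.72 ± 0.19 for PPP1R15A, −1.71 ± 0.48 for DDIT4 and −1.81 ± 0.47 for TRIB3 (SE; limma adjusted p = 0.170, 0.275, 0.330 and 0.254).

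Before adjustment, p was under 0.05 with lower values for 5 of 10 genes with FFA (3.03% of genes tested) and for 6 of 10 averaged (3.37%). The median averaged log2 change of the 10 genes was −0.51 and that of all genes was 0.14. The count test gave another call. With edgeR on the recovered reads, PPP1R15A, DDIT4, TRIB3 and ATF4 passed with FFA, all lower (adjusted p = 0.0138, 0.00352, 0.0155 and 0.0155), when 3.85% of genes passed. Averaged over treatment, DDIT3, PPP1R15A, DDIT4, ATF4 and CHAC1 passed, all lower (adjusted p = 0.0364, 0.00525, 0.000259, 0.0351 and 0.00810), when 8.47% passed. Of the 10 genes, 6 had enough reads for that test. In limma, ATF4 passed with FFA without co-culture FFA replicate 2 (7.53% of genes passing) or replicate 1 (5.13%), and averaged without replicate 2 (8.54%). Fewer cells of a kind and less RNA per cell cannot be told apart in such bulk libraries. The summed level of the 15 liver markers was 7825 to 8226 CPM in Caco-2 co-culture and 6347 to 7518 CPM in Caco-2 mono-culture. Of these markers, only AHSG had a lower mean in Caco-2 co-culture than in mono-culture. The means of all others, ALB and AFP among them, were higher. HP, which had the lowest levels of these markers in HepG2, was at 0 in 5 of 8 Caco-2 libraries. The part of HepG2 RNA in the differences of the stress response genes was not tested.

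In HepG2, no gene was separated from mono-culture by the test. None of the 9 genes passed limma's test without FFA (0% of genes passed), with FFA (0%), averaged (0%) or for the interaction (0%). Without FFA, TRIB3 differed by 0.14 ± 0.47, PPP1R15A by −0.07 ± 0.43, ATF4 by −0.18 ± 0.25 and DDIT3 by −0.32 ± 0.43 on the log2 scale (SE), within 95% intervals of −0.95 to 1.23, −1.05 to 0.91, −0.76 to 0.41 and −1.30 to 0.66. ATF4, DDIT4 and SESN2 were lower in both co-culture control libraries than in both mono-culture control libraries, SESN2 from 2 reads at most in a library. CEBPB was higher in both. Of all 14430 genes tested, 1788 were lower and 2963 were higher without overlap in this comparison. Whether these genes differ from that background was not tested. The log2 change of DDIT4 was −1.08 ± 0.65. Without co-culture FFA replicate 1, ATF4 passed as lower with FFA (−0.77, limma adjusted p = 0.0123, with 17.6% of genes passing) and averaged (−0.47, adjusted p = 0.0278, 8.84% passing), which rested on a library with 17 reads of ATF4. Without replicate 2, ATF4 had 0.13 with FFA and −0.02 averaged (limma adjusted p = 0.603 and 0.865). The 15 liver markers summed to 55018 and 75411 CPM in co-culture FFA and to 38148 to 51390 CPM in the other 6 HepG2 libraries. Their part in the HepG2 differences was not tested.

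**Figure D3:**
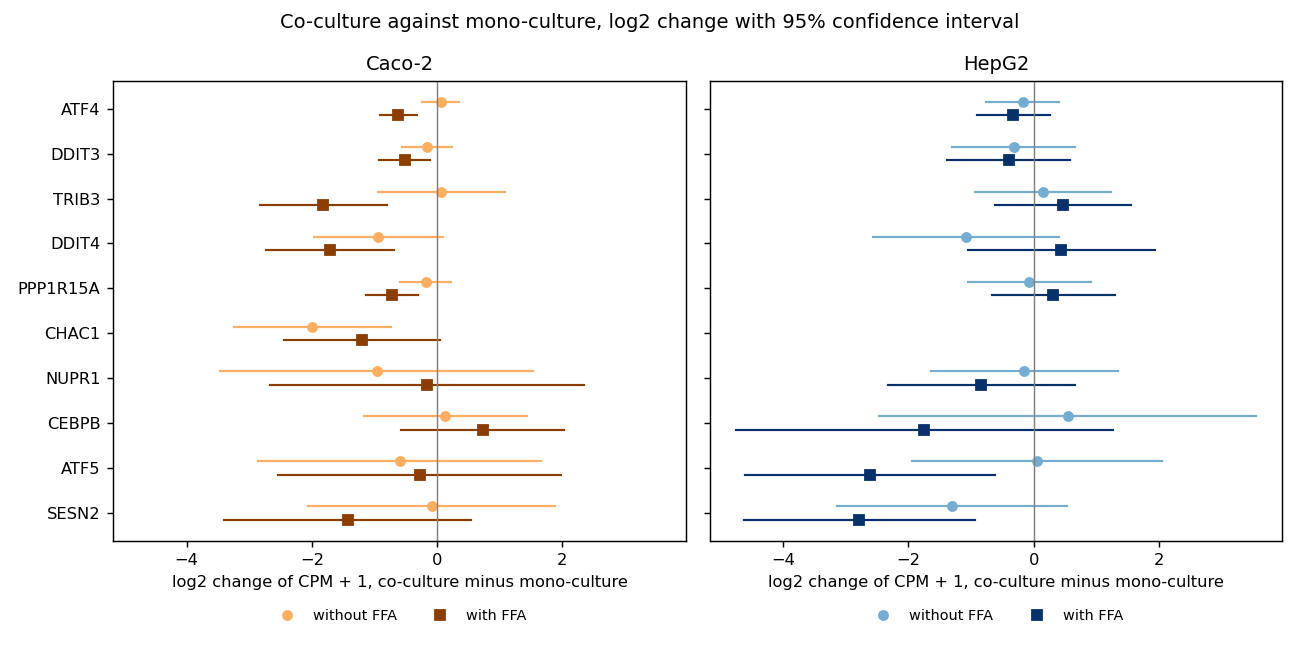
Co-culture minus mono-culture in each gene, as the log2 change of CPM plus 1 with its 95% confidence interval (horizontal axis), in Caco-2 (left) and HepG2 (right), without FFA (circles) and with FFA (squares). With FFA, DDIT4 differed by −1.71 in Caco-2 and 0.44 in HepG2. ATF5 and SESN2 had no read in HepG2 co-culture FFA, so their points there rest on depth.

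Whether FFA acted differently in the 2 lines was tested on all 16 libraries. The averaged FFA effect was larger in HepG2 than in Caco-2 by 1.37 ± 0.31 for PPP1R15A, 2.48 ± 0.63 for DDIT4 and 1.83 ± 0.50 for TRIB3 on the log2 scale (SE; limma adjusted p = 0.0958, 0.133 and 0.159). None of the 10 genes passed, and 0.0912% of genes tested did. These 3 genes had an unadjusted p under 0.05, as did 4.46% of genes tested in the same direction. ATF4 (0.42 ± 0.21) and DDIT3 (0.70 ± 0.36) had adjusted p = 0.492 and 0.494. With edgeR, TRIB3 passed (1.44, adjusted p = 0.0271, with 7.94% of genes passing). Leaving out HepG2 co-culture FFA replicate 1, 5 genes passed in limma (DDIT3, PPP1R15A, DDIT4, TRIB3 and CEBPB), when 6.14% of genes passed. CEBPB had 1 read in the library left in that group, so its call does not show a change. Leaving out HepG2 co-culture FFA replicate 2, 2 genes passed (PPP1R15A and ATF4, with 1.16% of genes passing). Leaving out Caco-2 co-culture FFA replicate 2, 2 genes passed (PPP1R15A and DDIT4, 5.49%), and leaving out Caco-2 mono-culture FFA replicate 2, 1 gene passed (PPP1R15A, 2.67%).

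Other genes of the pathway were taken from 4 lists. The list of eIF2 control held 21 genes for the kinases, eIF2 and eIF2B subunits and phosphatases, and no gene passed in any comparison within a line. With FFA in HepG2, EIF2AK1, the heme-regulated kinase, had an averaged log2 change of 1.36 ± 0.32 and EIF2B4 one of 0.66 ± 0.22 (SE; limma adjusted p = 0.173 and 0.253). In Caco-2, EIF2B3 had −0.59 ± 0.43 and PPP1CC 0.26 ± 0.24 with FFA (adjusted p = 0.829 for each), and EIF2S2 had −0.25 ± 0.08 and PPP1CA 0.41 ± 0.14 with co-culture (adjusted p = 0.236 and 0.294). In HepG2 with co-culture, EIF2B3 had 1.17 ± 0.38 and EIF2B5 −1.59 ± 0.61 (adjusted p = 0.628 and 0.631). The median change with FFA was 0.25 over 20 genes in HepG2 and 0.11 over 21 in Caco-2.

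The list of amino acid genes held 18 known ATF4 targets. With FFA in HepG2, averaged over culture, 17 of 18 had a positive log2 change, as did 47.2% of all genes tested. Their median log2 change was 0.79 against −0.07 for all genes, and 1 passed, where 0.0762% of all genes passed. PSAT1, an enzyme of serine synthesis, rose from 149 and 151 CPM to 233 and 276 CPM in mono-culture and from 136 and 140 CPM to 408 and 524 CPM in co-culture (1.25 ± 0.14, limma adjusted p = 0.0372). This call was lost without HepG2 co-culture control replicate 2, co-culture FFA replicate 2 or mono-culture control replicate 1, and at a pseudocount of 0.1, under a constant prior variance and after thinning. PYCR1, which makes proline, had 1.32 ± 0.22 (adjusted p = 0.0859). In Caco-2 the median with FFA was −0.02, 0 genes passed, and SLC3A2 and SHMT2 had −0.38 ± 0.12 and −0.34 ± 0.17 (adjusted p = 0.829 for each). With co-culture in Caco-2, 13 of 18 had a negative log2 change (median −0.36) and 1 passed, where 6247 of all 15454 genes had a negative one, the median was 0.14 and 0.453% passed. SLC3A2, the heavy chain of amino acid exchangers, fell from 408 and 392 CPM in mono-culture control and 321 and 350 CPM in mono-culture FFA to 230 and 260 CPM in co-culture control and 148 and 197 CPM in co-culture FFA (averaged −0.84 ± 0.12, adjusted p = 0.00540, and −0.97 ± 0.17, adjusted p = 0.0434, with FFA). The averaged call was lost without Caco-2 co-culture control replicate 1 or any 1 of the 4 mono-culture libraries, and that with FFA also without co-culture control replicate 2. Both were lost at a pseudocount of 0.1, under a constant prior variance and after thinning, and that with FFA under median-ratio rescaling. CBS had −2.01 ± 0.57 in Caco-2 (adjusted p = 0.168), and in HepG2 co-culture PSAT1 had 0.37 ± 0.14 and ASNS 0.46 ± 0.19 (adjusted p = 0.628 and 0.631).

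The list of other targets and partners held 20 genes, of which 0 passed within a line. With FFA in HepG2, MAP1LC3B, an autophagosome protein, had 0.95 ± 0.13 and GDF15, a secreted stress cytokine, 1.56 ± 0.33 (adjusted p = 0.0596 and 0.139). GDF15 had −0.62 ± 0.34 and CEBPD −1.23 ± 0.64 in Caco-2 with FFA (adjusted p = 0.829 for each). With co-culture in Caco-2, BCL2L11, a pro-apoptotic BH3 protein, had −1.57 ± 0.36 and MAP1LC3B −0.59 ± 0.14 (adjusted p = 0.0799 and 0.0960). In HepG2 with co-culture, ERO1A had 1.22 ± 0.43 and HMOX1 1.35 ± 0.53 (adjusted p = 0.628 and 0.631). The median with FFA was 0.14 in HepG2 and −0.27 in Caco-2.

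The list of the ATF6 and XBP1 branches of the unfolded protein response held 20 genes. With FFA in HepG2, 3 rose and 0 fell, with a median of 0.51, where 0.0762% of all genes passed and the median of all genes was −0.07. HSPA5, the chaperone BiP, rose by 0.97 ± 0.10, HERPUD1, of endoplasmic reticulum-associated degradation, by 1.73 ± 0.19 and PDIA4, a disulfide isomerase, by 1.04 ± 0.13 on the log2 scale (limma adjusted p = 0.0372 for each). These calls too were lost without HepG2 co-culture control replicate 2, co-culture FFA replicate 2 or mono-culture control replicate 1, that of HSPA5 also without mono-culture FFA replicate 2, and that of HERPUD1 also without mono-culture control replicate 2 or either mono-culture FFA replicate. All 3 were lost at a pseudocount of 0.1, under a constant prior variance and after thinning, and HSPA5 and PDIA4 under median-ratio rescaling. HERPUD1 was at 181 and 189 CPM in mono-culture control, 360 and 477 CPM with FFA, 153 and 148 CPM in co-culture control and 551 and 1007 CPM with FFA. In Caco-2, 0 passed with FFA, and HSPA5 and HERPUD1 had −0.40 ± 0.11 and −0.41 ± 0.17 (adjusted p = 0.829 for each). With co-culture in Caco-2, CREB3L2 had −1.96 ± 0.45 and HERPUD1 −0.68 ± 0.17 (adjusted p = 0.0792 and 0.105), and in HepG2 PDIA4 had 0.62 ± 0.13 and HSPA5 0.42 ± 0.10 (adjusted p = 0.457 and 0.506). The FFA effect differed between the lines for HSPA5 by 1.37 ± 0.14 and for HERPUD1 by 2.14 ± 0.28 (limma adjusted p = 0.00261 and 0.0106). Without HepG2 co-culture control replicate 2 neither passed, and without mono-culture control replicate 1 HERPUD1 did not. Under a constant prior variance and after thinning neither passed.

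**Figure D4:**
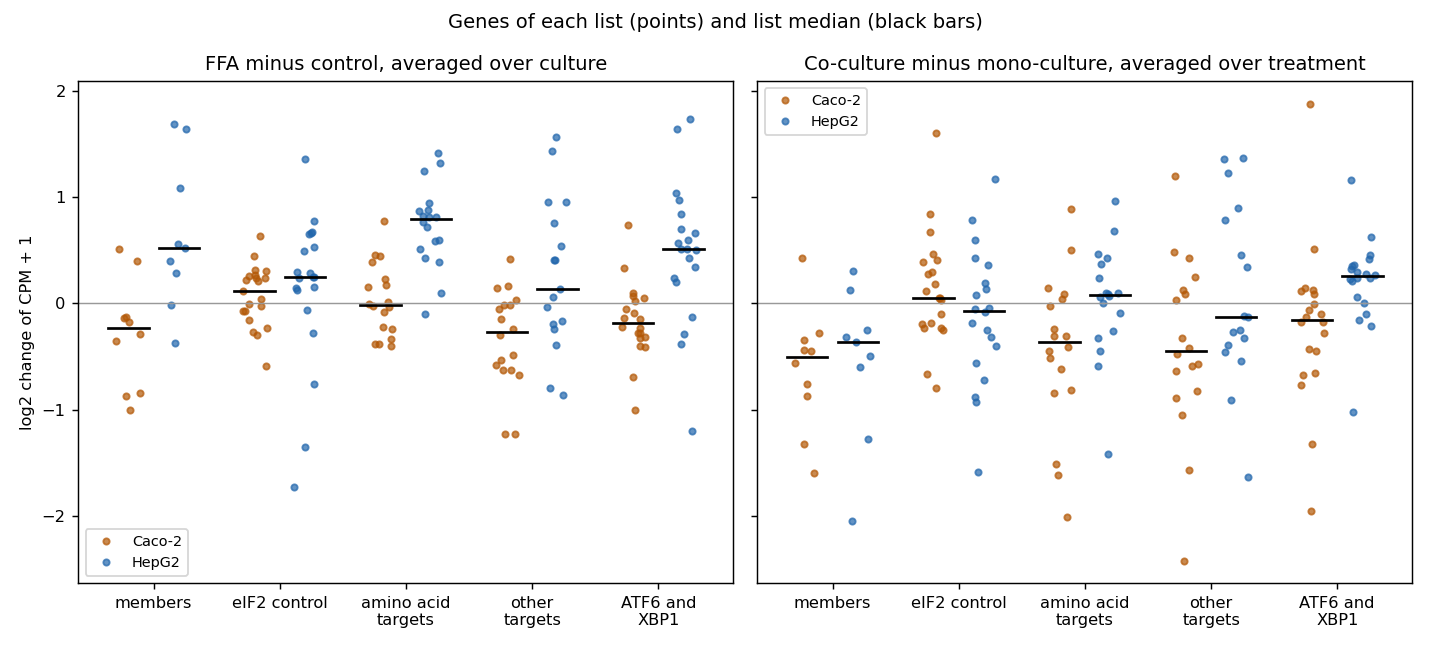
Log2 change of CPM plus 1 (vertical axis) of the genes of each list (horizontal axis) with FFA (left) and with co-culture (right), in Caco-2 (orange) and HepG2 (blue). Points are genes and black bars are medians. The medians with FFA were 0.52 for the 9 stress response genes and 0.79 for the amino acid genes in HepG2, and −0.23 and −0.02 in Caco-2.

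Between the lines, the same lists differed as follows. Of the 20 genes of the ATF6 and XBP1 list, 16 were higher in HepG2 and 0 lower, led by HSPA5 (2.89 ± 0.07), HSP90B1 (2.30 ± 0.06) and PDIA6 (1.74 ± 0.07; adjusted p = 2.33e-12, 2.51e-12 and 3.16e-10). Of the 18 amino acid genes, 11 were higher and 1 lower, with PSAT1 (3.78 ± 0.17), SHMT2 (1.47 ± 0.12) and PYCR1 (2.53 ± 0.23) leading (adjusted p = 7.28e-10, 3.18e-07 and 1.37e-06). Of 19 other targets 2 were higher and 6 lower, and of the 21 eIF2 control genes 2 were higher and 1 lower, against 30.3% of all genes in both directions. KLHL24 (−3.09 ± 0.32) and BCL2L11 (−2.79 ± 0.45) were lower in HepG2, and MAP1LC3B (0.70 ± 0.10) was higher (adjusted p = 3.81e-06, 0.000289 and 0.000103). Among eIF2B subunits EIF2B4 (1.69 ± 0.21) and EIF2B3 (0.94 ± 0.29) were higher and EIF2B5 (−1.19 ± 0.28) was lower (adjusted p = 2.40e-05, 0.0264 and 0.00554). EIF2B3 did not pass without Caco-2 co-culture FFA replicate 2, mono-culture control replicate 1 or mono-culture FFA replicate 2, or without HepG2 co-culture control replicate 2, mono-culture control replicate 1 or mono-culture FFA replicate 2.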

How the data were processed

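Polyadenylated RNA of 16 libraries was amplified as cDNA and read on an Oxford Nanopore device. The submitters' processing notes name minimap2 2.22 and GRCh38, and the counter is not given in the sources used here. The values deposited by the authors carry the name TPM but were made as CPM as far as the values show, without a correction for length: 99.6% to 100% of the values of a library are whole multiples of what 1 read is worth (tolerance 0.1 of a read). The test planned for TPM was kept. It was limma 3.58.1 in R 4.3.3 on log2(CPM + 1), in 4 groups per line, or 8 groups jointly between lines, with a trended prior and Benjamini-Hochberg adjustment over all genes whose mean reached 1 CPM in any group (threshold 0.05). Changes of low genes are understated on this scale. Alternatives covered the pseudocount, filter, scaling, prior variance, replicate block, edgeR 4.0.16 and limma-voom on recovered reads, thinning and leaving out libraries. The tests were checked on simulated data. Named were the 10 genes and, per list and line, those with the 2 smallest p for averaged FFA and co-culture, plus genes that passed (3 at most per list and comparison). Genes and lists were chosen with earlier results of these data known.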

Additional observations from a re-analysis of the deposited data

Results flagged for a closer look

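HSPA5 and HERPUD1 were singled out because the averaged FFA effect differed between the lines in the test of that difference, by 1.37 and 2.14 on the log2 scale, higher in HepG2 (limma adjusted p = 0.00261 and 0.0106). ATF4 and TRIB3 in Caco-2 had both FFA libraries above both controls in mono-culture and both below in co-culture. Of genes tested, 16% were above without overlap in mono-culture and 14.9% below in co-culture, each counted alone. The share of genes with both orders was not counted. The difference of the log2 changes, co-culture minus mono-culture, was −0.68 for ATF4 and −1.88 for TRIB3, and the interaction did not pass (limma adjusted p = 0.820 for each). In co-culture, PPP1R15A and TRIB3 had both FFA libraries below both controls in Caco-2 and both above in HepG2. In co-culture, 14.9% of genes tested were below without overlap in Caco-2 and 17.4% above in HepG2, each counted alone. Genes with both of these orders were not counted either. The log2 changes differed by 1.83 for PPP1R15A and 2.93 for TRIB3, HepG2 minus Caco-2, and this difference within co-culture was not tested. Groups of 2 libraries are too small for a check of single libraries that stand apart.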

How the results depend on the processing

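The number of stress response genes that passed differed from the reported one by over 1.5 times under these settings. In Caco-2 averaged co-culture, 0 passed as reported, against 1 (pseudocount 10), 2 (no filter), 3 (mean of at least 10 CPM), 5 (edgeR) and 5 (limma-voom), and in Caco-2 co-culture with FFA 3 (mean of at least 10 CPM), 4 (edgeR) and 4 (limma-voom). More of all genes passed too. For averaged co-culture these were 119 of 15454 at a pseudocount of 10 and 162 of 18308 without a filter. With edgeR, 8.47% of all genes passed averaged and 3.85% with FFA. In HepG2 with FFA, edgeR and limma-voom passed 1 and 1 in mono-culture, 1 and 2 in co-culture and 1 and 2 averaged, and quantile normalization passed 1 averaged. Here edgeR passed 0.744%, 7.99% and 13.3% of all genes in turn. For limma-voom, quantile normalization, rescaling, a constant prior variance, thinning and the 10 CPM filter, that share is not given. Their counts therefore do not single these genes out. A constant prior variance passed 2 in HepG2 co-culture with FFA, ATF5 and SESN2, both without a read in that group. For the difference of the FFA effect between lines, edgeR passed 1 (7.94% of all genes passing) and limma-voom 2. Median-ratio rescaling and a constant prior variance each passed 6 for the line difference, which went from 7 to 2 with all libraries thinned to 49634 reads, and this and the fit without the HepG2 co-culture FFA group (0 passing) were chosen after seeing the data. Leaving out 1 library gave 7 to 8 for the line difference (with ATF5 without Caco-2 co-culture control replicate 1), 0 to 5 for the difference of the FFA effect and for HepG2 FFA averaged, 0 to 4 for HepG2 FFA in co-culture, 0 to 1 for HepG2 co-culture with FFA and averaged, and 0 to 1 for Caco-2 FFA in co-culture, interaction, co-culture with FFA and co-culture averaged, and 0 to 0 elsewhere. The cause was not tested. No change of the 10 genes that passed reversed its direction, while EIF2B5 between the lines was 1.34 after thinning (adjusted p = 0.439). With the replicate number as a block (replicate block), 3 genes passed in Caco-2 co-culture with FFA (PPP1R15A, DDIT4 and ATF4) and 3 averaged (PPP1R15A, DDIT4 and CHAC1). Same-numbered libraries share only a number (mean correlation of deviations 0.0142 in Caco-2 and 0.00866 in HepG2, or 0.151 and 0.0529 over genes of at least 100 CPM, with group pairs from −0.0172 to 0.291 in Caco-2). The replicate block passed 210 genes of all tested for averaged co-culture in Caco-2, edgeR 389 and the reported test 70. Median-ratio rescaling put the median of all genes for FFA in HepG2 co-culture at −0.45, against −0.26 as reported. Depth limits ATF5, SESN2, CEBPB and NUPR1 most.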
